A study of Mus musculus with 4 samples.

Results

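The MHC class II presentation genes are 7 of the 32285 genes counted in single-cell RNA libraries of the mouse pituitary, and they were chosen by symbol. They are H2-Aa, H2-Ab1, H2-Eb1, H2-DMa, H2-DMb1, Cd74 and Ciita. The libraries came from wild-type C57BL/6J males kept for 12 weeks on a high-fat diet (HFD) or on a control diet (CTRL), and each diet had 2 libraries, HFD 1 and HFD 2, and CTRL 1 and CTRL 2. The glands had been broken into single cells with collagenase and trypsin and run on a droplet platform that counts the 3′ ends of polyadenylated RNA with unique molecular identifiers (UMIs). Neither the number of glands in a library nor whether the libraries of a diet were separate animals is given in the labels. Hence p-values cover no more than how far these samples differ, and that may be technical.

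MHC class II molecules display peptides from swallowed proteins to CD4+ T cells. They are made mainly by professional antigen-presenting cells, which are dendritic cells, macrophages and B cells, and other cells such as endothelium can be induced to make them by interferon gamma. H2-Aa and H2-Ab1 encode the alpha and beta chains of the I-A molecule, and H2-Eb1 encodes the beta chain of I-E. In C57BL/6 mice the partner chain of H2-Eb1 is not made, because the H2-Ea gene carries a deletion, so I-E does not reach the cell surface. Cd74 is the invariant chain, which fills the groove and guides new class II molecules to the endosome. H2-DMa and H2-DMb1 encode H2-M, which helps exchange the remnant of the invariant chain for peptide. Ciita is the coactivator that switches on the other 6 genes, through a set of short promoter boxes called W, X and Y.

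On the mm10 genome build (GENCODE vM21 annotation), 5 members lie close together on chromosome 17. H2-Aa is at 17:34282744-34287823 on the minus strand, H2-Ab1 at 17:34257689-34269419, H2-Eb1 at 17:34305867-34316674, H2-DMa at 17:34119541-34139101 and H2-DMb1 at 17:34153072-34160230, the last 4 on the plus strand. Promoter windows of 4 members, H2-Eb1, H2-DMb1, H2-Aa and H2-DMa, were searched for letters of these boxes, from 250 bases before to 50 bases after the annotated start (RefSeq, GRCm38.p6), and those of H2-Ab1, Cd74 and Ciita were not searched. The 3 windows with a match are printed here, those of H2-Eb1 and H2-DMb1 with both kinds of box letters and that of H2-Aa with the Y-box type alone. The windows are chr17:34305617-34305916 on the plus strand for H2-Eb1, chr17:34152941-34153240 on the plus strand for H2-DMb1 and chr17:34287774-34288073 on the minus strand for H2-Aa. Capitals mark the Y-box type letters TGATTGG, the X-box type letters TAGNAAC and, in H2-Aa, the cyclic AMP response element TGACGTCA.
H2-Eb1: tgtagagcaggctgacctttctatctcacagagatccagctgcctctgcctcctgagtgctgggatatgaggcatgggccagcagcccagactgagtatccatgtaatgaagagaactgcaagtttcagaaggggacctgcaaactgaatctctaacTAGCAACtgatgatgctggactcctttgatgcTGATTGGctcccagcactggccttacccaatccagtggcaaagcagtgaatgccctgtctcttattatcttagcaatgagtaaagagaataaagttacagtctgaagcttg
H2-DMb1: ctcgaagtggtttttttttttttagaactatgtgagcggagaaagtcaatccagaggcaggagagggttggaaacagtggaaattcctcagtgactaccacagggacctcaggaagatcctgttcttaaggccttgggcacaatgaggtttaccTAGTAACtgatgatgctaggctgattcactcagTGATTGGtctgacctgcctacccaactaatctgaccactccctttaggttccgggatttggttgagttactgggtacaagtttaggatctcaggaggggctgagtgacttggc
H2-Aa: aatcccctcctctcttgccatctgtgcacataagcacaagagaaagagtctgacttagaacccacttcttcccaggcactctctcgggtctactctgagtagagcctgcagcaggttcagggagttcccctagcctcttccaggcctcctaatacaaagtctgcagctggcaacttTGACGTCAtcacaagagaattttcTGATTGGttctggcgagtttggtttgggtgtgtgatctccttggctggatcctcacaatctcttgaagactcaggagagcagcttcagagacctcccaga
The Y-box type letters, searched on both strands, were in 7.82% of all 32851 promoter windows of this length and the X-box type letters in 11.4%. Both together were in 0.938% of windows, and among them in those of H2-Eb1 and H2-DMb1. The first base of the X-box type letters stood 32 bases before the first base of the Y-box type letters in H2-Eb1, 33 bases before in H2-DMb1 and 30 bases before in H2-Ob, a further class II gene that is not a member. In H2-Eb2, another such gene, the order was the other way round, at -91 bases. H2-Aa held the Y-box type letters without the X-box type letters, 50 bases before its start, and the cyclic AMP response element 74 bases before its start, which was in 1.79% of windows. The search found none of these letters in the windows of H2-DMa. A match of letters is a description of the window and not evidence of a bound site.

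The libraries held 74758237, 97223297, 92818116 and 101903367 UMIs in HFD 1, HFD 2, CTRL 1 and CTRL 2, and 7498, 6928, 4350 and 6904 cells were kept. The median UMIs per kept cell were 8659, 11060.5, 17984 and 12453 in the same order. Libraries shared cell barcodes. HFD 1 shared 3116 with HFD 2, of which 3100 had at least 10 times fewer UMIs in HFD 1, and it shared 1423 with CTRL 2. The low copies of shared barcodes made up 23% of the kept cells of HFD 1, 0.913% of CTRL 2 and none of the kept cells of the other 2 libraries. Macrophage-like cells included 2 copies and stem-like cells 349, and 317 of the 349 were in HFD 1. Levels in CPM of macrophage-like, endothelial-like and stem-like cells moved little without the copies, and shares of cells in HFD 1 moved more, so the main shares are also given without them. Cells were put into 16 classes by marker genes, with the 7 members and the further class II loci left out of the clustering, and the class names carry "-like" since they rest on RNA alone. Macrophage-like cells carried their defining markers, with C1qa, a complement subunit, in 97.4% and 98.6% of cells in HFD 1 and HFD 2 and in 96.2% and 100% in CTRL 1 and CTRL 2. Among the markers of the dendritic-like cells Xcr1 was at 0 in all 4 libraries, while Cd209a was in 77.8% and 83.3% of these cells in HFD 1 and HFD 2 and in 33.3% and 0% in CTRL 1 and CTRL 2.

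Dendritic-like and macrophage-like cells held the highest levels of 6 of the 7 genes, on average by more than 10-fold over any class outside the immune system. Levels here are CPM, the UMIs of a gene among 1000000 UMIs of the class sum, counted at the 3′ end, so they are not divided by gene length. The summed level of the 7 genes in the 19 dendritic-like cells was 66291 and 53830 CPM in HFD 1 and HFD 2 and 32503 and 62633 CPM in CTRL 1 and CTRL 2. These values rest on 9 and 6 cells in HFD 1 and HFD 2, and on 3 cells and 1 cell in CTRL 1 and CTRL 2. In the 507 macrophage-like cells it was 49247 and 39952 CPM in HFD 1 and HFD 2 and 40295 and 39792 CPM in CTRL 1 and CTRL 2, a range that lies inside that of the dendritic-like cells. B cell-like cells came next, at 15327 and 22735 CPM in HFD 1 and HFD 2 and 16388 and 18269 CPM in CTRL 1 and CTRL 2, below every macrophage-like value. The highest non-immune value of the sum was 1786 CPM, in the mesenchymal-like cells of HFD 1.

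The invariant chain gene Cd74 was the member with the most UMIs in each of these 3 classes. In macrophage-like cells Cd74 had 21824 and 17820 CPM in HFD 1 and HFD 2, against 18288 and 17998 CPM in CTRL 1 and CTRL 2. The I-A beta chain gene H2-Ab1 had 8711 and 6664 CPM in HFD 1 and HFD 2 macrophage-like cells, against 6498 and 6922 CPM in those of CTRL 1 and CTRL 2. In both genes HFD 1 was the highest library and the other 3 lay close together. The I-A alpha chain gene H2-Aa ranged from 5934 to 7235 CPM and H2-Eb1 from 8050 to 10454 CPM over the 4 libraries. The H2-M genes were far lower in UMIs, with H2-DMa at 389.8 to 447.4 CPM and H2-DMb1 at 412.7 to 501.4 CPM. H2-DMb1 has a near-identical neighbour, H2-DMb2, which was counted at 4.59 to 15 CPM, so how reads were split between the 2 genes is uncertain.

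The coactivator gene Ciita (16:10480059-10528418, plus strand, mm10) was sparse everywhere and broke the order of the other members. It averaged 106.2 CPM in B cell-like cells, with a range of 0 to 290.9 CPM over the libraries, 77.3 CPM in dendritic-like cells and 52.9 CPM in macrophage-like cells. These 3 classes overlapped in range, and the B cell-like values rest on 0 to 7 UMIs a library. Ciita was at 0 in every library in gonadotrope-like, pituicyte-like and pericyte-like cells. Most of the Ciita gene overlaps Dexi on the other strand, by 25888 bases, and H2-DMa overlaps Brd2 on the other strand by 3094 bases. Whether counting used the strand is not given in the sources used here, so low counts of these members can include reads of their neighbours.

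**Figure D1:**
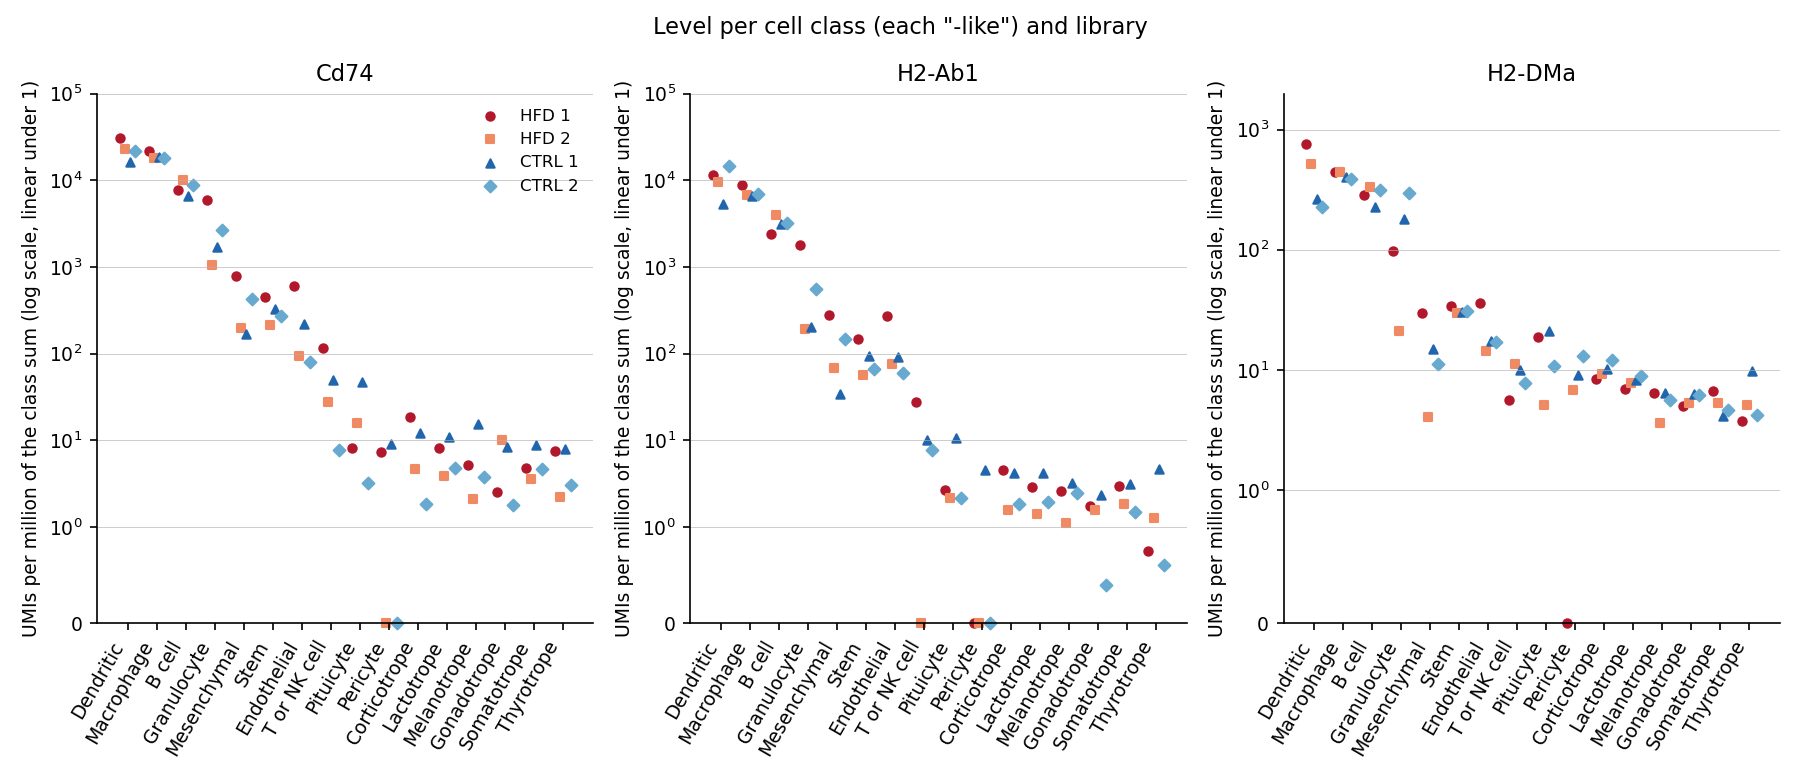
Levels of Cd74, H2-Ab1 and H2-DMa in CPM of the class sum (vertical axis, log scale, linear under 1) in the 16 named cell classes (horizontal axis), with 1 point per library. For Cd74 the dendritic-like, macrophage-like and B cell-like points lie between 6495 and 30714 CPM, while the hormone classes lie between 1.79 and 18.4 CPM.

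Below the immune classes the order was loose. Mesenchymal-like, stem-like and endothelial-like cells averaged 861.9, 641.1 and 632.8 CPM for the sum of the 7 genes, with overlapping ranges, and stood above T or NK cell-like cells at 107.1 CPM and pituicyte-like cells at 87.5 CPM. The 6 hormone classes averaged 16.1 to 29.6 CPM, with every neighbour in that order overlapping. In mesenchymal-like cells the 5 cells with the most class II UMIs held 96.2% and 96.1% of them in HFD 1 and HFD 2, and at the lowest 90.8%, in CTRL 1. In granulocyte-like cells, which averaged 5267.8 CPM, the 5 highest cells held 97.5% or more in each library. That class had only 12 cells in each HFD library, and 7 and 6 in CTRL 1 and CTRL 2, where 5 cells are most of the class. Both classes' levels therefore describe a few cells. The endothelial-like and stem-like averages also include cells with a UMI of a macrophage marker. Without the copies, Cd74 had 610.7 CPM in all endothelial-like cells of HFD 1 and 74.1 CPM in those with no such UMI. In CTRL 2 it had 80.7 and 67.9 CPM.

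Most class II RNA of the gland came from few cells. Macrophage-like cells were 2.07% and 2.08% of the kept cells in HFD 1 and HFD 2, and 2.44% and 1.48% in CTRL 1 and CTRL 2. Without the copies they were 2.65% of the cells of HFD 1 and 1.49% of those of CTRL 2. They held 71.3% and 80.2% of all UMIs of the 7 genes in HFD 1 and HFD 2, and 73.5% in each CTRL library. Stem-like cells, the gland's Sox2-bearing progenitors, gave 6.59% and 5.82% in HFD 1 and HFD 2, against 11.5% and 9.66% in CTRL 1 and CTRL 2. These parts include the stem-like cells with a UMI of a macrophage marker, which are set aside below. Dendritic-like cells gave 6.78% and 5.99% in HFD 1 and HFD 2, against 2.77% and 2.33% in CTRL 1 and CTRL 2, from 9 and 6 cells in HFD 1 and HFD 2 and 3 and 1 cells in CTRL 1 and CTRL 2. In both classes the diets did not overlap, and with 2 libraries against 2 an exact permutation test cannot give a p below 0.33. The 6 hormone classes were 73.6% to 81% of the cells. They gave 1.94% and 2.29% in HFD 1 and HFD 2, against 4.12% and 3.66% in CTRL 1 and CTRL 2, so the diets did not overlap there either. All of these are parts of a library's total of the 7 genes, so the part of a class also depends on the level in the others.

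**Figure D2:**
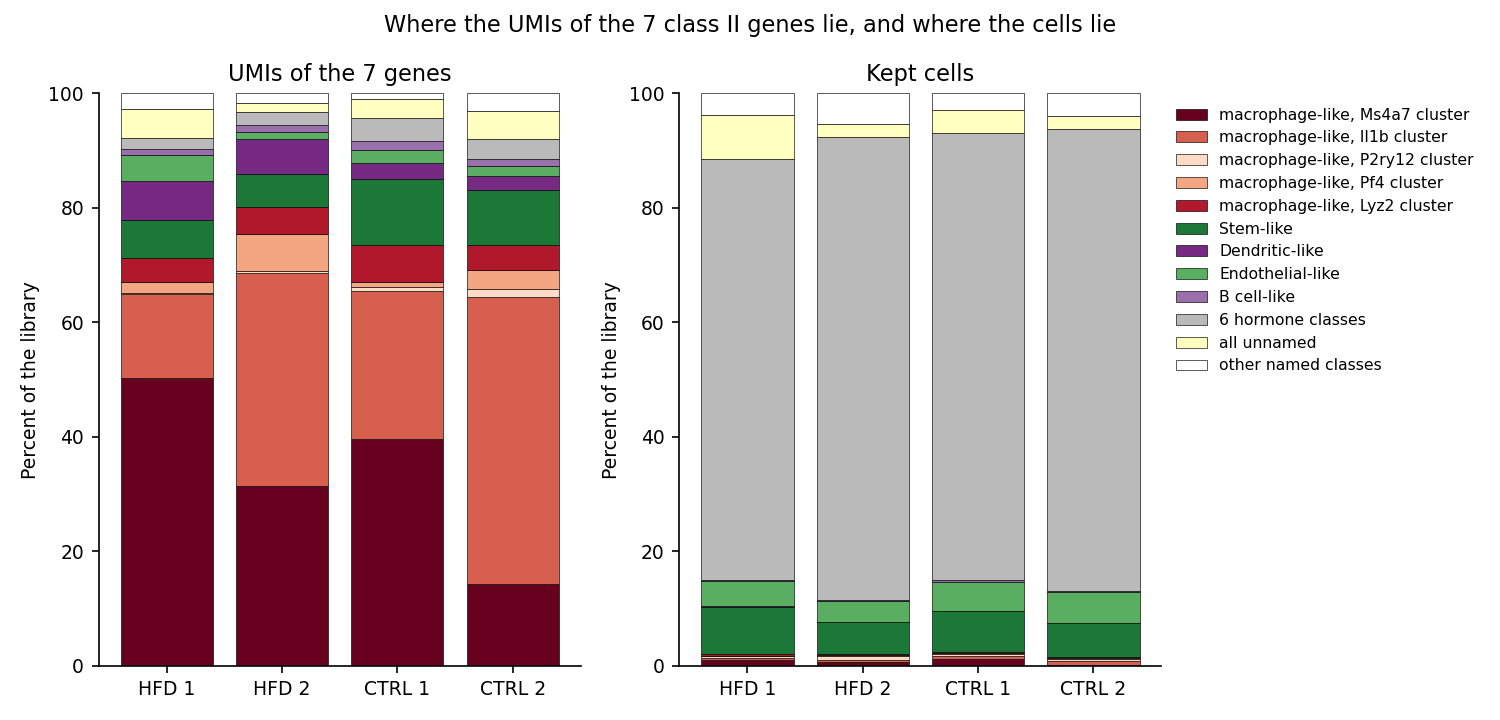
Share of each library's UMIs of the 7 class II genes (left) and of its kept cells (right) by cell class, in percent of the library, with HFD 1, HFD 2, CTRL 1 and CTRL 2 as bars. Macrophage-like cells, in 5 clusters, fill 71.3% to 80.2% of the UMIs and 1.48% to 2.44% of the cells, and their largest cluster differs between libraries.

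Stem-like and endothelial-like cells held class II UMIs in another proportion than macrophages, which can be read within each library. In macrophage-like cells there were 82.7 and 84 UMIs of Cd74 per 100 UMIs of H2-Aa, H2-Ab1 and H2-Eb1 together in HFD 1 and HFD 2, and 86.6 and 85.9 in CTRL 1 and CTRL 2. To set aside cells with visible macrophage RNA, the ratio was taken again over cells with no UMI of a macrophage marker. In such stem-like cells it was 160.8 and 166.5 in HFD 1 and HFD 2, and 157 and 160.7 in CTRL 1 and CTRL 2. In such endothelial-like cells it was 36.2 and 38.2 in HFD 1 and HFD 2, and 75.1 and 47.9 in CTRL 1 and CTRL 2. The stem-like values lie above, and the endothelial-like values below, those of macrophage-like cells of the same library, in all 4 libraries. In the P2ry12 cluster, a part of the macrophage-like cells described below, Cd74 averaged 284.6 CPM in HFD and 1063.6 CPM in CTRL. H2-Aa, H2-Ab1 and H2-Eb1 averaged 29.8, 85.6 and 63.4 CPM there in HFD, and 239.5, 279.5 and 221.8 CPM in CTRL. Cd74 thus exceeded the 3 chain genes together in that cluster, so an excess of Cd74 was not particular to stem-like cells. Endothelial-like cells without a macrophage marker also had a larger part of H2-Ab1 among the 3 chain genes than macrophage-like cells. It was 49.7% and 48.8% in HFD 1 and HFD 2 and 47.5% and 41% in CTRL 1 and CTRL 2. In macrophage-like cells that part was 33% and 31.4% in HFD 1 and HFD 2, and 30.8% and 33% in CTRL 1 and CTRL 2. In the P2ry12 cluster it was 45.7% and 53.8% in HFD 1 and HFD 2, and 34.6% and 40.3% in CTRL 1 and CTRL 2. The HFD 2 value there rests on 26 UMIs of the 3 chain genes and lay above the endothelial-like one.

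The class II UMIs of stem-like cells without a macrophage marker were spread over many of them. These were 93.4% and 92.9% of the stem-like cells in HFD 1 and HFD 2, and 83.1% and 92.2% in CTRL 1 and CTRL 2. Setting aside the cells with a marker lowered the level. Without the copies, H2-Eb1 had 143 CPM over all stem-like cells of HFD 1 and 61.1 CPM in those without a marker. In CTRL 2 it had 73.4 and 46.5 CPM. Among stem-like cells without a macrophage marker, 30.7% and 54% in HFD 1 and HFD 2, and 68.6% and 57.3% in CTRL 1 and CTRL 2, had a UMI of H2-Aa, H2-Ab1 or H2-Eb1. Without the copies these shares were 54.1% in HFD 1 and 60.1% in CTRL 2, so both HFD libraries then lay close together and below both CTRL libraries. Over all stem-like cells, a UMI of any member was in 54.8% of cells of HFD 1 with the copies and in 80.5% without them. Among stem-like cells without a macrophage marker, the 5 highest held 32.2% of the class II UMIs in HFD 1 and 20% in HFD 2. In CTRL 1 and CTRL 2 they held 17.3% and 9.44%. Depth differs between libraries, so shares were also taken after thinning every cell to 1000 UMIs and leaving out shallower cells. Any member was then seen in 26.8% and 22.9% of all stem-like cells of HFD 1 and HFD 2, and in 25.3% and 30.1% of those of CTRL 1 and CTRL 2. In the hormone classes, which are not known to present antigen, the same share was 2.28% and 1.83% in HFD 1 and HFD 2, and 3.92% and 1.97% in CTRL 1 and CTRL 2 at a median depth before thinning of 9896 and 11563 UMIs in HFD 1 and HFD 2, and 19260 and 13124.5 UMIs in CTRL 1 and CTRL 2. The stem-like medians were 2146 and 16091 UMIs in HFD 1 and HFD 2, and 19197 and 11422 UMIs in CTRL 1 and CTRL 2. The share in stem-like cells of HFD 1 without copies was 29.8%. The thinning left out 109 shallower stem-like cells in HFD 1, 3 in HFD 2, 7 in CTRL 1 and 27 in CTRL 2.

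Endothelial-like cells at the same depth had a member UMI in 24.3% and 16.6% of cells in HFD 1 and HFD 2, and in 20% and 17.5% in CTRL 1 and CTRL 2. Before thinning the shares were 53.3% and 45.1% in HFD 1 and HFD 2, and 59.5% and 47.5% in CTRL 1 and CTRL 2. Averaged over the libraries of a diet, the thinned share was 20.5% ± 5.44 in HFD and 18.8% ± 1.77 in CTRL (SD, n = 2 each), with an exact two-sided permutation p of 1. For stem-like cells it was 24.9% ± 2.76 in HFD and 27.7% ± 3.39 in CTRL (SD, n = 2 each), with an exact permutation p of 0.667. For macrophage-like cells it was 87.2% ± 8.7 in HFD and 85.9% ± 7.78 in CTRL (SD, n = 2 each), with an exact permutation p of 0.667. None of these 3 differences between diets exceeded the spread between libraries.

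H2-DMa and H2-DMb1, the H2-M genes, also had places of their own. In the hormone classes together H2-DMa reached 83.9 and 126.9 UMIs per 100 UMIs of the 3 chain genes in HFD 1 and HFD 2, and 69.4 and 128 in CTRL 1 and CTRL 2. In macrophage-like cells it was 1.69 and 2.11 per 100 in HFD 1 and HFD 2, and 1.91 and 1.86 in CTRL 1 and CTRL 2. In somatotrope-like cells, the growth hormone cells, H2-DMa had 6.72 and 5.27 CPM in HFD 1 and HFD 2 and 4.1 and 4.64 CPM in CTRL 1 and CTRL 2, while H2-DMb1 stayed at 0.142 to 0.21 CPM. Over the 6 hormone classes H2-DMb1 reached 4.54 and 7.89 UMIs per 100 UMIs of the chain genes in HFD 1 and HFD 2, and 4.3 and 5.06 in CTRL 1 and CTRL 2, so it was detected there but far below H2-DMa. Brd2 overlaps H2-DMa with its 5′ part, from 17:34112023-34122634 on the minus strand, while the platform counts 3′ ends. Whether the H2-DMa UMIs of these classes include reads of Brd2 was not tested. H2-DMb1 was instead at 26.9 and 18.1 CPM in pituicyte-like cells, the glia of the posterior lobe, of HFD 1 and HFD 2, and at 57.6 and 33.4 CPM in those of CTRL 1 and CTRL 2. H2-Aa was at 0 and 8.68 CPM in the pituicyte-like cells of HFD 1 and HFD 2, and at 21 and 0 CPM in those of CTRL 1 and CTRL 2. The diets did not overlap in H2-DMb1 there, with a log2 difference of -1.06 and an adjusted p of 0.996 (edgeR). The share of all genes without overlap was not counted in this class. Of its 83 cells in HFD 1, 49 were copies of shared barcodes, and CTRL 1 had only 23 cells.

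**Figure D3:**
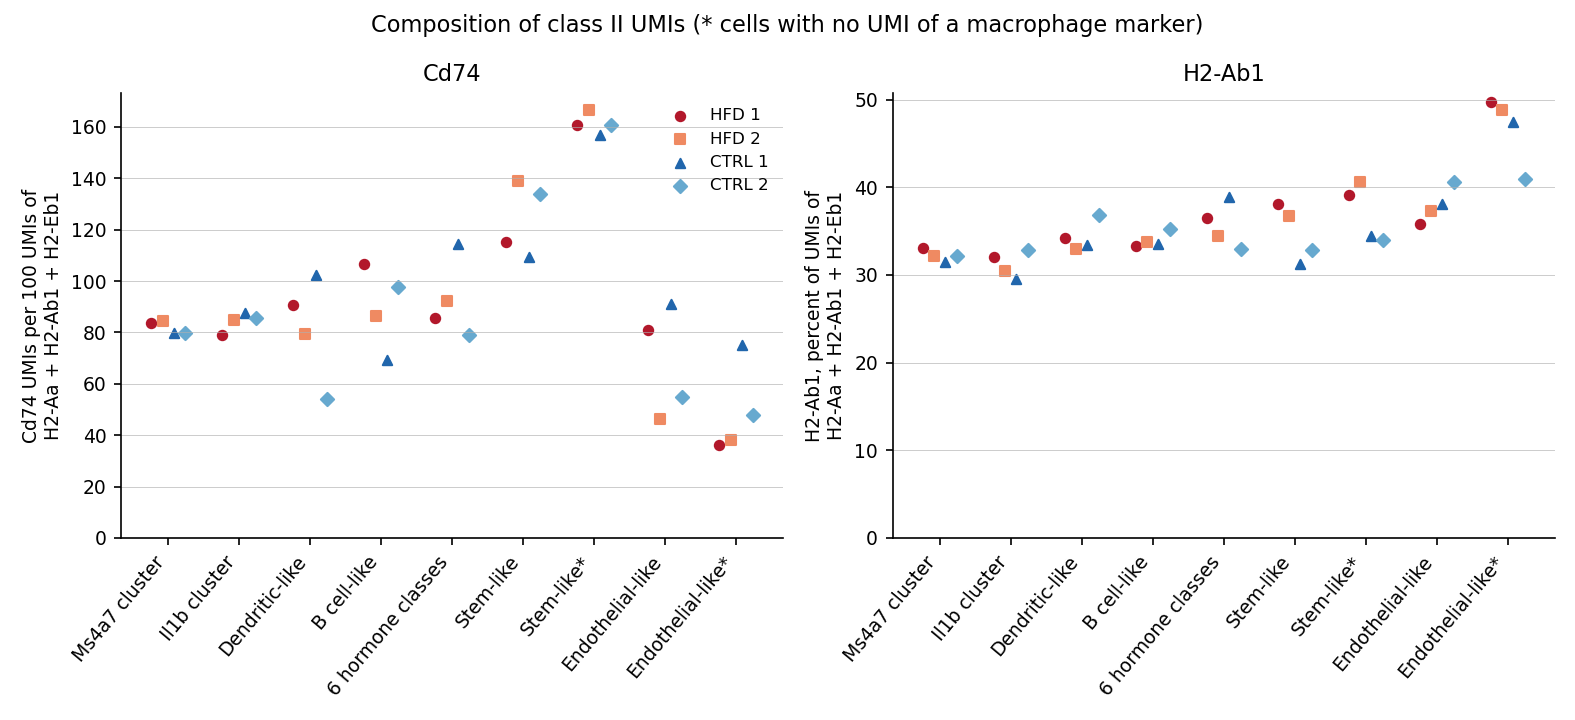
UMIs of Cd74 per 100 UMIs of H2-Aa, H2-Ab1 and H2-Eb1 together (left), and H2-Ab1 in percent of those 3 (right), by class or macrophage cluster, with 1 point per library; an asterisk marks cells with no UMI of a macrophage marker. Stem-like cells without such a marker lie at 157 to 166.5 on the left, above the Ms4a7 and Il1b macrophage clusters, and endothelial-like cells without one lie at 41% to 49.7% on the right. The P2ry12 macrophage cluster is not drawn.

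Macrophage-like cells were not alike. They fell into 5 clusters, each called here by 1 of its leading genes, and in HFD 2 they differed by more than 100-fold in class II RNA, although the class II genes were not used to form them. The Ms4a7 cluster (179 cells) summed to 62856 and 56497 CPM for the 7 genes in HFD 1 and HFD 2, and to 46074 and 61689 CPM in CTRL 1 and CTRL 2. The Il1b cluster (125 cells), led by the inflammatory cytokine gene Il1b, had 62069 and 71294 CPM in HFD 1 and HFD 2, and 58033 and 66372 CPM in CTRL 1 and CTRL 2. The P2ry12 cluster (109 cells) was led by Trem2, Siglech, Gpr34 and P2ry12, genes best known from the microglia of the brain. It had only 911.2 and 588 CPM in HFD 1 and HFD 2, and 2102.9 and 2190.4 CPM in CTRL 1 and CTRL 2. That is 0.275% and 0.406% of the class II UMIs of macrophage-like cells in HFD 1 and HFD 2, and 1.04% and 1.83% in CTRL 1 and CTRL 2. Its cells were 14.2% and 26.4% of macrophage-like cells in HFD 1 and HFD 2, and 17% and 30.4% in CTRL 1 and CTRL 2. Its summed macrophage markers were the highest of these 3 clusters, between 23665 and 28000.2 CPM, against 12692.2 to 18149.8 CPM in the Ms4a7 and Il1b clusters.

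The other 2 clusters were small. The Pf4 cluster (43 cells), with the chemokine gene Pf4 and the mannose receptor gene Mrc1 among its leading genes, lay between, at 32772 and 23674 CPM in HFD 1 and HFD 2 and 20542 and 19458 CPM in CTRL 1 and CTRL 2. The Lyz2 cluster (51 cells, median 1991 UMIs) had 30829 and 47171 CPM in HFD 1 and HFD 2, and 54389 and 57583 CPM in CTRL 1 and CTRL 2. Both had fewer than 10 cells in at least 1 library and were not tested. The share of macrophage-like cells in the Ms4a7 cluster was 51% and 27.8% in HFD 1 and HFD 2, and 44.3% and 12.7% in CTRL 1 and CTRL 2, so libraries of 1 diet differed more than the diets did.

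**Figure D4:**
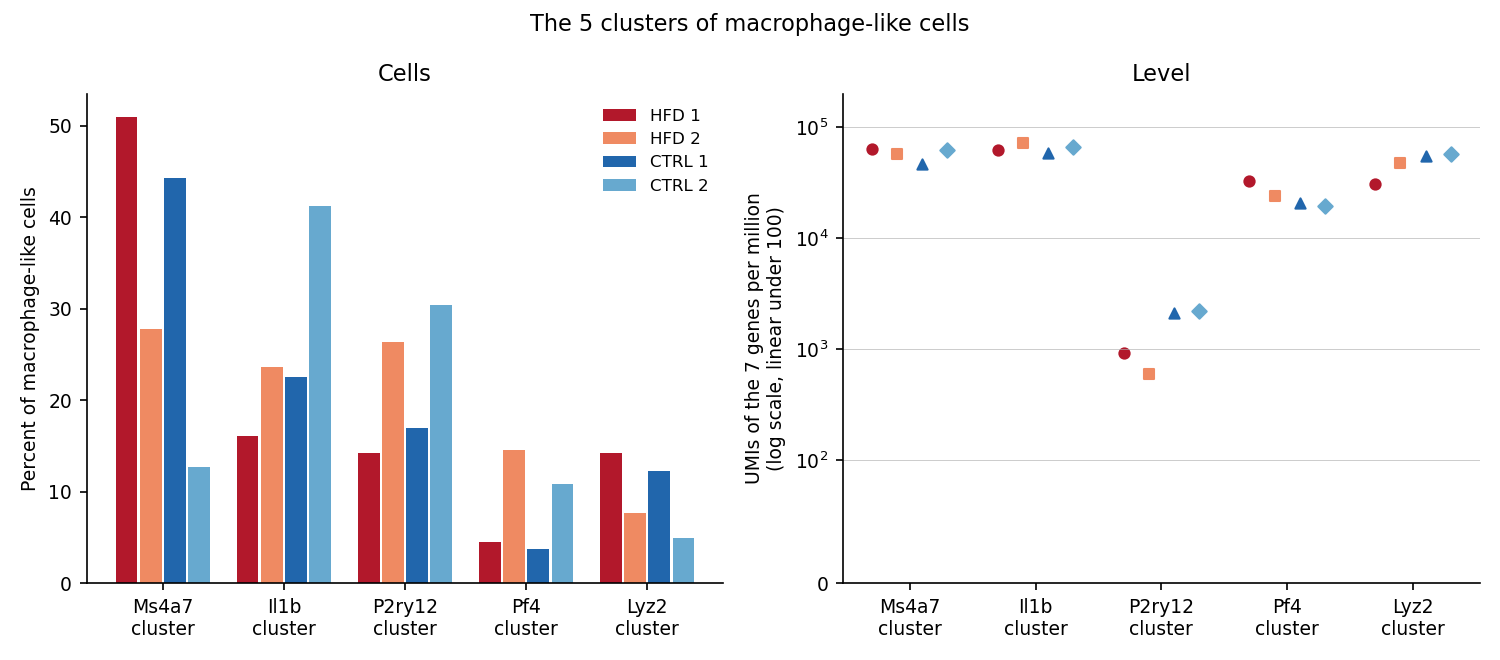
Percent of the macrophage-like cells of each library in 5 clusters (left, bars from 0) and the summed level of the 7 genes in each cluster in CPM (right, log scale, linear under 100), for HFD 1, HFD 2, CTRL 1 and CTRL 2. The P2ry12 cluster lies between 588 and 2190.4 CPM, below every other cluster, with both HFD libraries below both CTRL libraries.

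Within a library, the class II level varied over the whole range from cell to cell. After thinning to 1000 UMIs, the median macrophage-like cell had 58 and 42 class II UMIs in HFD 1 and HFD 2, and 45 and 46.5 in CTRL 1 and CTRL 2. The highest cells had 169 and 144 in HFD 1 and HFD 2 and 161 and 115 in CTRL 1 and CTRL 2, while 7.24% and 18.2% of cells in HFD 1 and HFD 2, and 9.52% and 16.7% in CTRL 1 and CTRL 2, had none. Cells were ranked by this number and those at the 2 ends compared, 50 and 47 cells at each end in HFD 1 and HFD 2 and 35 and 34 in CTRL 1 and CTRL 2. The P2ry12 cluster supplied 38% and 78.7% of the low end in HFD 1 and HFD 2, 51.4% and 82.4% in CTRL 1 and CTRL 2, and 0% of the high end in every library. Genes higher at the high end in all 4 libraries were led by Mmp12, a macrophage elastase, with a log2 difference of at least 2.17, Plbd1 and H2-M2, a class Ib MHC gene. Genes lower there were led by Sparc, a matrix protein gene, at -4.46 or below, Ldhb, and the lysosomal protease gene Ctsd at -2.74 or below. The cells were chosen by the members themselves, so these differences are a description and carry no test.

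Over the 16 classes and 4 libraries (64 points that share libraries and depth), the members followed each other closely. On the log2(CPM + 1) scale Pearson's r was 0.983 between Cd74 and H2-Ab1 and 0.816, the lowest, between H2-DMb1 and Ciita. Of 7470 genes, the one most like the mean of the members was Cd83, a surface protein of mature antigen-presenting cells, at r = 0.959. Ly86, the partner of a Toll-like receptor relative, followed at 0.947, and Ctss, the cathepsin that trims the invariant chain, at 0.936. Cd83, at 1403.6 CPM, and Ctss, at 5631.3 CPM, were highest in macrophage-like cells. Their likeness describes the cell classes and gives no p.

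In the gland as a whole all 7 genes were higher in both HFD libraries than in both CTRL libraries, and none passed the test. Cd74 had 425.4 and 246.1 CPM in HFD 1 and HFD 2, against 235.3 and 171.4 CPM in CTRL 1 and CTRL 2. H2-Ab1 had 164.9 and 91.7 CPM in HFD 1 and HFD 2, against 81.2 and 63.9 CPM in CTRL 1 and CTRL 2. HFD 1 stood well above the rest in both genes, and HFD 2 was only a little above CTRL 1. The log2 difference, HFD over CTRL, was 0.68 (SE 0.27) for Cd74 and 0.78 (SE 0.27) for H2-Ab1, and ran from 0.26 for H2-DMa to 0.78 over the members, with adjusted p of 0.42 to 0.549 (edgeR quasi-likelihood test, Benjamini-Hochberg). Of the members 5 had an unadjusted p under 0.05, DESeq2 also called none, and the test called 0.0108% of all 18533 genes. Both HFD libraries were higher in 27% of all genes. Without HFD 2, H2-Ab1 had an adjusted p of 0.0275 and H2-Aa one of 0.0468, and without HFD 1 the log2 difference of Cd74 was 0.25. All 9 macrophage markers were higher in HFD as well, with a median log2 difference of 0.61 and none called. In a gland sum alone, more cells of a type, more RNA per cell and fewer UMIs in the other cells cannot be told apart. Macrophage-like cells held 901536 of the 65486619 UMIs of kept cells in HFD 1 and 981190 of 87683709 in HFD 2. They held 801768 of 85320639 in CTRL 1 and 654177 of 92460981 in CTRL 2. The part of each in the differences was not tested.

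Within macrophage-like cells the differences were smaller. The log2 difference was 0.12 (SE 0.12) for Cd74, 0.16 (SE 0.13) for H2-Aa, 0.19 (SE 0.15) for H2-Ab1, 0.17 for H2-Eb1 and H2-DMa, 0.10 for H2-DMb1 and 0.47 (SE 0.27) for Ciita. Adjusted p ran from 0.928 to 0.988 (edgeR), no member had an unadjusted p under 0.05, DESeq2 called none, and 0.0746% of 6703 genes were called. H2-Aa, H2-DMa and Ciita were higher in both HFD libraries, 3 of 7, where 17.4% of all genes were. Ciita had 74.3 and 48.9 CPM in HFD 1 and HFD 2, against 42.4 and 45.9 CPM in CTRL 1 and CTRL 2, from 30 to 67 UMIs a library. Without HFD 1 the log2 difference of Cd74 was -0.05 and that of H2-Ab1 -0.03, and without HFD 2 Cd74 passed, at 0.28 and an adjusted p of 0.028. The share of macrophage-like cells among kept cells was 2.08% ± 0.00707 in HFD and 1.96% ± 0.679 in CTRL (SD, n = 2 each), with an exact permutation p of 1. Without the copies it was 2.37% ± 0.403 in HFD and 1.96% ± 0.672 in CTRL (SD, n = 2 each), with an exact permutation p of 0.667.

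Endothelial-like cells had the largest positive differences, carried by HFD 1. Cd74 had 605.5 and 94.3 CPM in HFD 1 and HFD 2, against 219.1 and 80.7 CPM in CTRL 1 and CTRL 2. H2-Eb1 had 280.4 and 74 CPM in HFD 1 and HFD 2, against 77.2 and 51.7 CPM in CTRL 1 and CTRL 2. HFD 2 lay among the CTRL libraries for both genes, and all 7 members overlapped between diets. The log2 difference was 1.24 (SE 0.75) for Cd74 and 1.47 (SE 0.52) for H2-Eb1, with an adjusted p of 0.998 for all 6 members tested (edgeR). Of these 2 had an unadjusted p under 0.05, and DESeq2 called none. The test called 0% of 10164 genes, with 328 at an unadjusted p under 0.05, and DESeq2 called 2. Without HFD 1 the log2 difference of Cd74 was -0.59 and that of H2-Eb1 0.26. The summed macrophage markers of endothelial-like cells moved with these levels, at 302 and 49.6 CPM in HFD 1 and HFD 2 and 198.2 and 16.8 CPM in CTRL 1 and CTRL 2. In endothelial-like cells with no macrophage marker, Cd74 had 73.9 and 45.5 CPM in HFD 1 and HFD 2, against 97.9 and 67.9 CPM in CTRL 1 and CTRL 2, so HFD 1 was not the highest. For the other 6 members HFD 1 remained the highest library in these cells. H2-Ab1 had 101.5 and 58.2 CPM there in HFD 1 and HFD 2, against 61.9 and 58 CPM in CTRL 1 and CTRL 2. H2-Eb1 had 61.7 and 32.8 CPM in HFD 1 and HFD 2, against 33 and 49.9 CPM in CTRL 1 and CTRL 2. The part of macrophage RNA in the differences was not tested. The interaction, the difference between diets in macrophage-like cells less that in endothelial-like cells, called no member, with an adjusted p of 1 for all 7 (edgeR). On the log2 scale it was -0.75 (SE 0.62) for Cd74, -0.90 (SE 0.47) for H2-Aa and -1.05 (SE 0.41) for H2-Eb1, the 1 member with an unadjusted p under 0.05, at 0.0258. That test called 0% of 10375 genes, with 327 at an unadjusted p under 0.05.

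Stem-like cells gave log2 differences from -1.11 to 0.33, with adjusted p of 0.671 to 0.988 (edgeR) and no member under an unadjusted p of 0.05. Cd74 had 446.2 and 215.1 CPM in HFD 1 and HFD 2, against 326.1 and 271.6 CPM in CTRL 1 and CTRL 2, so the HFD libraries enclosed the CTRL ones. The lowest value belonged to Ciita, at 1.76 and 0.761 CPM in HFD 1 and HFD 2 and 3.14 and 2.04 CPM in CTRL 1 and CTRL 2, from 5 to 23 UMIs a library. The test called 0% of 13452 genes, with 1032 at an unadjusted p under 0.05, and DESeq2 called 15 genes and no member. A further 10 classes had at least 10 cells in every library. In pericyte-like and T or NK cell-like cells no member had enough counts to be tested. In the other 8 classes 34 tests of members gave no call, with adjusted p from 0.222 to 1 (edgeR) and 3 at an unadjusted p under 0.05. The share of all genes called differed widely between these classes, at 3.42% in gonadotrope-like, 1.38% in lactotrope-like, 0.215% in corticotrope-like, 0.119% in thyrotrope-like, 0.0549% in somatotrope-like and 0.00777% in melanotrope-like cells. It was 0% in mesenchymal-like and pituicyte-like cells, with 357 and 325 genes at an unadjusted p under 0.05.

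Inside the macrophage-like class, the clusters were tested apart after their levels had been seen. The Ms4a7 cluster had log2 differences of 0.04 to 0.49 and the Il1b cluster of 0.07 to 0.44, with adjusted p of 0.818 to 1 and 0.81 to 1 (edgeR) and no member called. The background was 0.136% of 3676 genes and 0% of 2713 genes, with 217 and 171 genes at an unadjusted p under 0.05. In the P2ry12 cluster H2-Aa was lower in HFD, with 5 and 6 UMIs, or 37.3 and 22.2 CPM, in HFD 1 and HFD 2, against 36 and 55 UMIs, or 226 and 253.1 CPM, in CTRL 1 and CTRL 2. The log2 difference was -3.07 (SE 0.39), with an adjusted p of 0.0311, and H2-Aa was the only gene called, 0.0374% of 2673. Cd74 had 358.5 and 210.8 CPM in HFD 1 and HFD 2, against 1004.4 and 1122.8 CPM in CTRL 1 and CTRL 2, a log2 difference of -1.92 (SE 0.32) that did not pass, with an adjusted p of 0.0982. H2-Ab1 and H2-Eb1 had -1.81 and -2.03, with adjusted p of 0.293 and 0.329. These 4 of the 7 members were lower in both HFD libraries, as were 16.5% of all genes there. H2-DMa and H2-DMb1 overlapped between diets, at -0.24 and -0.16.

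The H2-Aa call rests on few UMIs and few cells. The cell richest in class II held 20 of the 36 H2-Aa UMIs in CTRL 1 and 26 of the 55 in CTRL 2, and without the richest cell of each library H2-Aa had 24.5 and 15.2 CPM in HFD 1 and HFD 2, against 109.3 and 139.3 CPM in CTRL 1 and CTRL 2. Over all 7 genes the median cell of the cluster had 2 and 3 UMIs in HFD 1 and HFD 2, and 4.5 and 5 in CTRL 1 and CTRL 2. Where the border of the cluster was drawn decided the call. With 1 bordering cell added per library H2-Aa was at -2.76 with an adjusted p of 0.19, with 40 components its adjusted p was 0.0553 and with 1000 variable genes 0.112. It was called under the other 6 settings of the clustering tried. Without CTRL 1 its adjusted p was 0.86 at a log2 difference of -3.11, as large as with all libraries. Without each of the other libraries it was called, and over all 4 the difference ran from -3.38 to -2.66. The call therefore holds for the cluster as drawn and not for each way of drawing it.

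The difference between diets itself differed between the P2ry12 cluster and the Ms4a7 and Il1b clusters combined. The interaction was -3.23 (SE 0.40) on the log2 scale for H2-Aa, with an adjusted p of 3.57e-04, -2.11 (SE 0.30) for Cd74, with 0.00102, and -1.97 (SE 0.36) for H2-Ab1, with 0.0194 (edgeR). H2-Eb1 had -2.21 (SE 0.45) and missed, with 0.052. H2-DMa, H2-DMb1 and Ciita had -0.50, -0.34 and -3.30, with an adjusted p of 0.998 each. The test called 7 of 4463 genes, or 0.157%. H2-Aa and Cd74 were called under all 9 other ways of drawing the P2ry12 cluster, while H2-Ab1 was lost with 40 components (0.162) and 1000 variable genes (0.0941). Leaving out HFD 1 or HFD 2 ended all 3 calls, with adjusted p for H2-Aa of 0.261 without HFD 1 and 0.208 without HFD 2, at differences of -3.59 and -2.78. Leaving out CTRL 1 or CTRL 2 kept them.

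**Figure D5:**
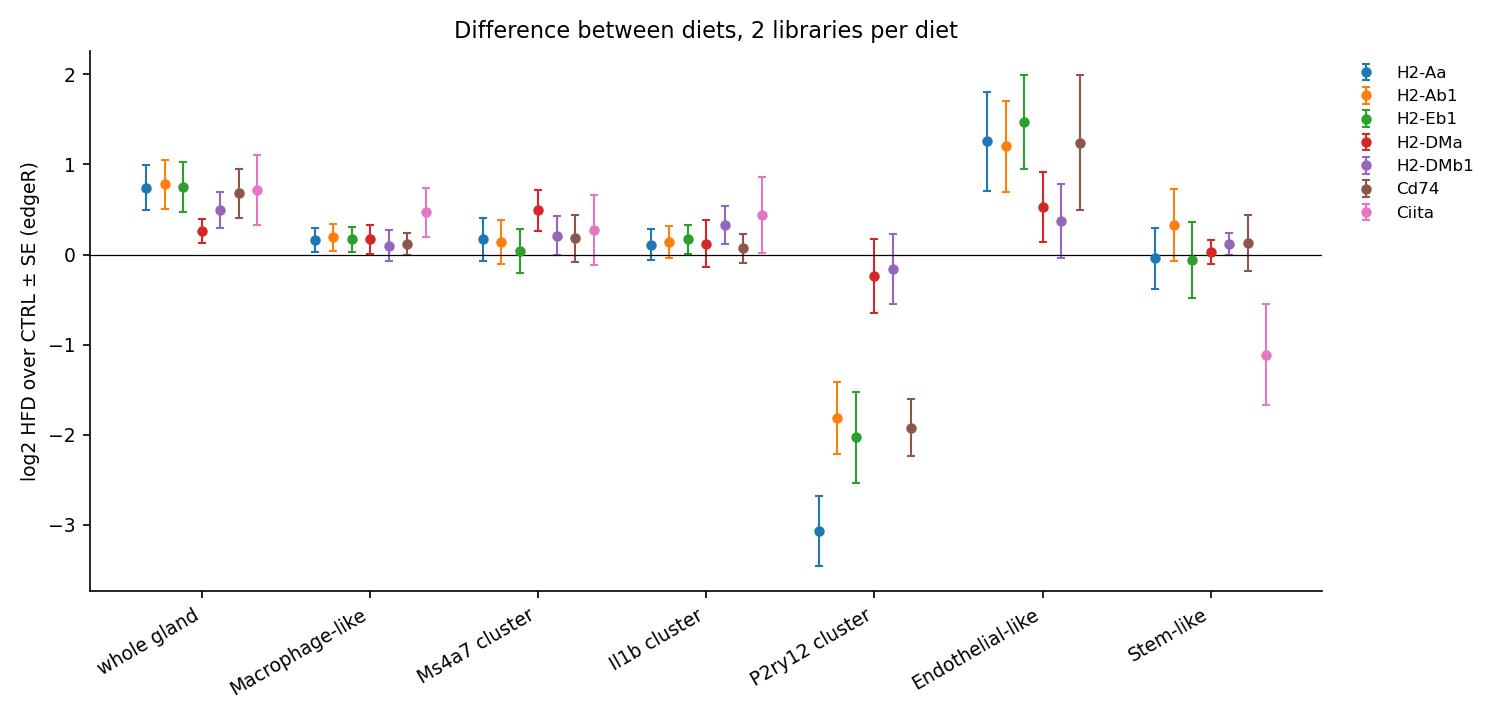
Log2 difference of each class II gene, HFD over CTRL, with its standard error (vertical axis), in the gland sum, in 3 cell classes and in 3 macrophage clusters (horizontal axis), from edgeR fits of 2 libraries per diet. Points above 0 are higher in HFD; H2-Aa in the P2ry12 cluster, at -3.07, is the single point past an adjusted p of 0.05.

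Other genes of the pathway were counted in the gland sum and in the macrophage-like, endothelial-like and stem-like cells, and none of the 7 lists had a gene called in any of these (edgeR). Of the 6 lysosomal enzymes that cut antigen and the invariant chain, all 6 were higher in HFD in the gland sum, with a median log2 difference of 0.21 beside 0.005 for all genes, and Ctss was at 0.76 with an adjusted p of 0.326. In macrophage-like cells 4 of the 6 were higher, with a median of 0.04 beside -0.002 for all genes. Ctss had 6029 and 6164 CPM in HFD 1 and HFD 2 macrophage-like cells, against 4813 and 5288 CPM in those of CTRL 1 and CTRL 2. The diets did not overlap in Ctss, at a log2 difference of 0.27 and an adjusted p of 0.855. Of the 6 genes listed as co-stimulation, 5 were tested in macrophage-like cells and none was higher in HFD, with a median of -0.49. The list mixes genes of stimulating ligands with the inhibitory ligand genes Cd274 and Pdcd1lg2, and Cd274 was itself at -0.49. Among the 5 tested, Cd86 had 248.5 and 250.7 CPM in HFD 1 and HFD 2, against 328 and 287.4 CPM in CTRL 1 and CTRL 2. Its log2 difference was -0.31, with an adjusted p of 0.928 (edgeR).

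The 7 genes of class II transcription, which encode the RFX, NF-Y and CREB factors that Ciita works through, had a median of -0.03 in the gland sum and 0.14 over the 5 tested in macrophage-like cells. Of the 9 class I presentation genes, 8 were higher in HFD in the gland sum, with a median of 0.32, and 5 in macrophage-like cells, with a median of 0.00. B2m, the light chain of class I, was at 0.47 in the gland sum and -0.02 in macrophage-like cells. The 8 genes of interferon gamma signalling had medians of 0.08 in the gland sum and -0.06 over the 7 tested in macrophage-like cells, where Ifng itself had no UMI in any library. Of the further class II loci, 4 were counted, and H2-Oa and H2-Ob, which encode the H2-O brake on H2-M, were at 0.77 and 0.50 in the gland sum, with adjusted p of 0.519 and 0.63. The 2 ubiquitin ligase genes March1 and March8, of which March1 drives class II turnover, were at 0.06 and -0.13 in the gland sum.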

How the data were processed

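The deposited values were UMI counts, whole numbers per gene and barcode that the authors had not normalized; Cell Ranger 6.1.2, Seurat 4.3 and mm10 are named, with no roles, per the submitters' processing notes. Cells needed 500 genes or more, with 20% or less of their UMIs mitochondrial, and 1540 putative doublets were removed (25680 of 34737 barcodes kept). Cells were clustered on 2000 variable genes without class II genes (30 components, 20 neighbours, Leiden resolution 0.8; scanpy 1.11.5, leidenalg 0.10.2), and clusters with Ptprc in at least 20% of cells were clustered again at resolution 1. A cluster took the class with the highest mean marker fold among those with at least 3 markers in 10% of cells at a log2 fold of 1. That rule was set after the clusters had been seen, with no comparison of diets, and 1068 cells stayed unnamed. Counts summed per library and class (at least 10 cells in each) were tested with edgeR 4.0.16 (R 4.3.3), TMM scaling and filterByExpr, with an adjusted p under 0.05 counted as a call. On simulated macrophage counts of 6644 genes at a dispersion of 0.02, 198 of 199 genes changed by a log2 fold of 2 were found, with 4 false calls. Smaller folds were not simulated, so this does not show whether differences as small as those of the members in macrophage-like cells would be found. CPM and shares were computed here. Shared barcodes count as copies at 10 times fewer UMIs. The members, pathway lists and marker lists were chosen with earlier results of these data known. The rule for named genes was all members and listed genes, the 10 genes most like the members over classes and libraries, and the 10 in each direction that differed most, in every library, between macrophage-like cells rich and poor in class II, of which the text gives the leading ones. The fits of macrophage clusters, the settings of their clustering and the results without copies were added after seeing the data.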

Additional observations from a re-analysis of the deposited data

Results flagged for a closer look

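Between diets, 3 members differed in another way in the P2ry12 cluster of macrophage-like cells than in the Ms4a7 and Il1b clusters, by the test of that difference itself. The difference of log2 differences, HFD over CTRL, was -3.23 for H2-Aa, -2.11 for Cd74 and -1.97 for H2-Ab1. In the P2ry12 cluster alone the log2 differences of these genes were -3.07, -1.92 and -1.81, while in the Ms4a7 cluster they were 0.17, 0.18 and 0.14 and in the Il1b cluster 0.11, 0.07 and 0.14. The clusters were set apart after their levels had been seen, the P2ry12 cluster had 22 and 38 cells in HFD 1 and HFD 2 and 18 and 31 in CTRL 1 and CTRL 2, and leaving out either HFD library ended each of the 3 calls.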

How the results depend on the processing

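Over 338 alternatives for single members that left out no library, 324 kept their direction and their side of the threshold and 2 changed sign, H2-Aa in stem-like cells without the copies (0.01) and H2-DMb1 in the P2ry12 cluster with 1 bordering cell added per library (0.02); the cause was not tested. The number of genes called moved more. In macrophage-like cells it was 5, and 75 with no filter on low counts, 3 with class II genes kept in the clustering and 11 with putative doublets kept. In endothelial-like cells it was 0, and 2 with DESeq2 and 1 with no filter; in stem-like cells 0, and 15 with DESeq2 and 480 with no filter; in the gland sum 2, and 220 with DESeq2 and 138 with no filter. In the P2ry12 cluster 0 genes and 0 members were called with 40 components, with 1000 variable genes or with a bordering cell added, and 3 genes with more variable genes. The interaction of the macrophage clusters called 4 genes with 1000 variable genes and 12 with more.

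Same-numbered libraries carry no stated pairing and there are only 2 numbers, so the numbers were not taken as pairs; the correlation of their deviations was 0.03 in the gland sum, 0.05 in macrophage-like, 0.31 in endothelial-like and 0.02 in stem-like cells. With the replicate number as a block, 12 genes were called in macrophage-like cells, 88 genes and 4 members in endothelial-like cells, and 2 genes and 1 member in the P2ry12 cluster. In that cluster the correlation was -0.21, and pairing the libraries crosswise gave 8 genes and 2 members.

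Leaving out 1 library in turn, genes called ranged from 0 to 39 in endothelial-like cells, 16 to 145 in macrophage-like cells, 0 to 11 in stem-like cells, 1 to 113 in the gland sum, 0 to 28 in the P2ry12 cluster, 0 to 9 for the interaction of macrophage-like and endothelial-like cells and 1 to 23 for that of the macrophage clusters. Members called ranged from 0 to 1 in macrophage-like cells, 0 to 2 in the gland sum, 0 to 4 in the P2ry12 cluster and 0 to 4 for the interaction of the clusters. Members that changed sign in this ranged, in log2 difference, from -0.03 to 0.39 (H2-Ab1), -0.01 to 0.34 (H2-Eb1), -0.03 to 0.23 (H2-DMb1) and -0.05 to 0.28 (Cd74) in macrophage-like cells. In endothelial-like cells they ranged from -0.22 to 1.02 (H2-DMa), -0.46 to 0.89 (H2-DMb1) and -0.59 to 2.07 (Cd74). In stem-like cells they ranged from -0.67 to 0.42 (H2-Aa), -0.47 to 0.86 (H2-Ab1), -0.89 to 0.49 (H2-Eb1), -0.03 to 0.10 (H2-DMa) and -0.46 to 0.55 (Cd74). In the P2ry12 cluster they ranged from -0.79 to 0.51 (H2-DMa) and -0.38 to 0.16 (H2-DMb1). The interaction ranged from -0.84 to 0.38 (H2-DMa), -0.66 to 0.44 (H2-DMb1) and -1.89 to 0.42 (Cd74) between macrophage-like and endothelial-like cells, and from -1.33 to 0.41 (H2-DMa) between the macrophage clusters. The difference between diets in the share of cells with a class II UMI, in points, ranged from -4.8 to 7.5 in macrophage-like cells, -2.15 to 5.55 in endothelial-like cells and -1.87 to 0.085 in the hormone classes. That of the class share ranged from -0.365 to 0.595 for macrophage-like and from -0.0705 to 0.0755 for B cell-like cells.

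The share of endothelial-like cells with a class II UMI was 1.7 points higher in HFD at 1000 UMIs, -1.7 at 2000 UMIs and -4.3 unthinned. The share of B cell-like cells differed by 0.0025 points, and by -0.0422 with stricter limits on cells (1000 genes, 10% mitochondrial).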

Other observations

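Of the immune clusters that took no class name, 3 were led by genes of dividing cells such as Top2a and Mki67, and class II levels in them varied widely between libraries. A cluster of 77 such cells had 5871.3 and 2782.7 CPM of the 7 genes in HFD 1 and HFD 2, and 2393.2 and 3518.4 CPM in CTRL 1 and CTRL 2. A cluster of 24 such cells had 24880 and 244.1 CPM in HFD 1 and HFD 2, and 1616.9 and 3077.9 CPM in CTRL 1 and CTRL 2. The smallest, of 9 cells, had 1946.6 and 142.6 CPM in HFD 1 and HFD 2, and 1216.7 and 617.2 CPM in CTRL 1 and CTRL 2. HFD 1 was the highest library in each. The largest unnamed cluster held 958 cells, of which 463 were copies of shared barcodes, with a median of 1550.5 and 9084 UMIs per cell in HFD 1 and HFD 2, and 2667.5 and 7338 in CTRL 1 and CTRL 2. It had 45.3 and 23 CPM in HFD 1 and HFD 2, and 228.6 and 27.4 CPM in CTRL 1 and CTRL 2.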
